A study of Caenorhabditis elegans with 43 samples.

Results

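Larvae that carry both lin-41(xe11) and let-7(n2853), here the double mutant, were compared with larvae that carry lin-41(xe11) alone at 28, 30, 32, 34 and 36 h of growth. These are 10 of the 43 libraries of the series, 5 per strain with 1 library per strain and hour, taken by strain and hour from the labels and paired by hour. The series is a time course of total RNA, depleted of ribosomal RNA, from whole Caenorhabditis elegans larvae that were hatched without food and then fed Escherichia coli NA22 at 25 °C. It also covers the wild type N2 and the single mutant let-7(n2853). As background, n2853 changes a base in the seed of the let-7 microRNA and impairs it at higher temperature, and xe11 changes the sites in the lin-41 3′ UTR to which let-7 pairs. Both strains compared here carry xe11, so by the labels they differ in the let-7 allele alone. The comparison asks what the let-7 mutation does to RNA when lin-41 carries xe11. How far wild-type let-7 or its n2853 form still represses lin-41 through the changed sites was not tested. The alleles are carried by the whole animal, not by 1 tissue. Whether each library is a culture of its own is not stated, so p-values measure only the spread between these samples, which may be technical.

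let-7 is made from the late larval stages on and pairs with sites in the 3′ UTRs of its targets, which lowers their RNA and protein. Its best studied target in the epidermis is lin-41, whose RNA-binding protein holds back mab-10, lin-29, mab-3 and dmd-3, the transcriptional regulators of the change from larva to adult. daf-12, which encodes the nuclear receptor of the dafachronic acid steroids, and hbl-1, which encodes a Hunchback-like transcription factor, are other known targets with sites of their own.

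The 5 late lin-41(xe11) libraries held 11.2 to 14.3 M counts and the 5 late double mutant libraries 12.7 to 15.7 M. Matched to N2 by their whole RNA profile, the late lin-41(xe11) libraries looked 27.9, 30.0, 32.2, 33.5 and 37.1 h old and those of the double mutant 27.2, 30.0, 31.9, 33.3 and 37 h old. The gap between the strains was widest at 28 h. Levels below are CPM, counts scaled to a common library total with TMM factors, and changes are log2 fold changes ± standard error over n = 5 libraries per strain. A gene is called when its adjusted p from edgeR's quasi-likelihood test, taken over the 13295 genes tested, is under 0.05.

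Few genes separated the strains. Of 13295 genes 12 were called (0.0903%), 5 higher in the double mutant (0.0376%) and 7 lower (0.0527%), and 8 of the 12 differed by at least 2-fold. Without adjustment 557 genes (4.19%) had a p under 0.05. All 12 had the same sign at 5 of 5 late hours, which 352 tested genes (2.65%) showed upwards and 545 (4.10%) downwards. In 3 of the 12 (daf-12, scrm-4 and bath-13) the levels of the strains did not overlap, against 14 tested genes in all (0.105%). The median change of all tested genes was -0.01, with 5% of genes below -0.26 and 5% above 0.22. The 95% interval lay within 2-fold in either direction for 12827 genes (96.5%) and within 1.5-fold for 10561 (79.4%). For 457 genes that were not called it reached 2-fold or more, and these were mostly low, with a median level of 3.26 CPM against 18.2 CPM for all tested genes. Leaving out any 1 of the 10 libraries left 5 to 11 genes called; counts under 8 came without the lin-41(xe11) libraries of 30 h (7), 32 h (6) or 36 h (5) or those of the double mutant at 30 h (6), 32 h (6) or 34 h (5). daf-12, Y39G8B.7, cyn-8, scrm-4 and bath-13 were called each time. Without the hour in the fit, when change over time counts as spread, scrm-4 alone was called and 128 genes had an unadjusted p under 0.05.

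**Figure D1:**
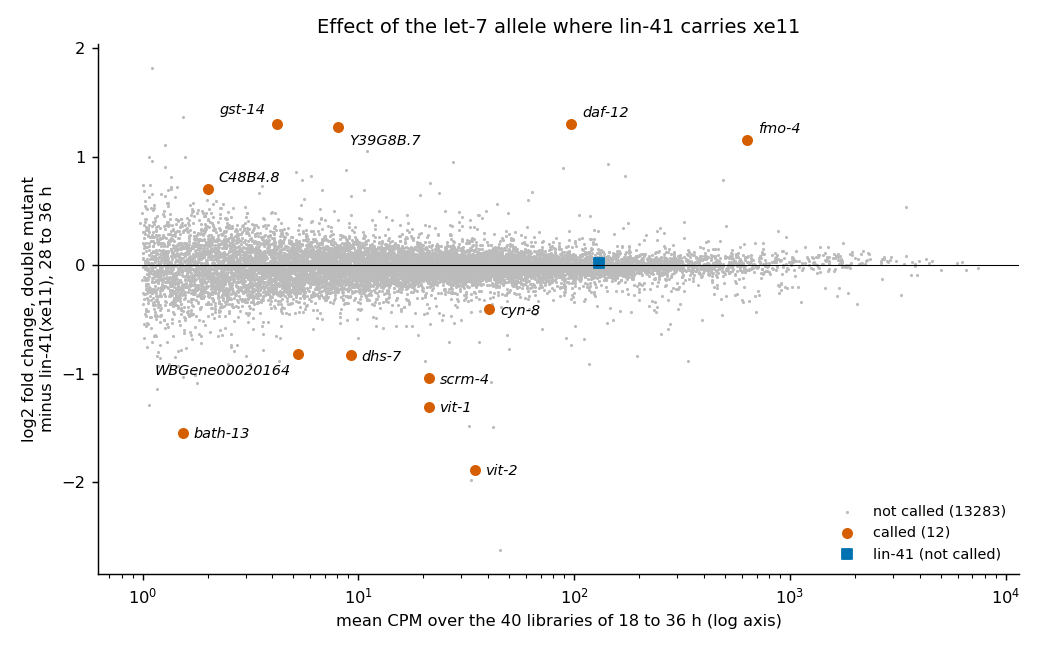
The log2 fold change of the double mutant against lin-41(xe11) from 28 to 36 h is plotted against the mean CPM of each tested gene (log axis), with the 12 called genes in orange and lin-41 as a blue square. The 5 called rises and 7 called falls lie away from a cloud centred near 0, and lin-41 sits on the line at 0.02.

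lin-41 itself did not differ between the strains. In lin-41(xe11) it stood at 99.0, 102.1, 68.5, 42.3 and 66.5 CPM from 28 to 36 h, and in the double mutant at 95.4, 104.1, 69.7, 47.7 and 64.4 CPM. The series overlap throughout and fall and rise together by hour. The difference was 0.02 ± 0.12 (adjusted p = 0.9995), with a 95% interval from -0.23 to 0.27, and no alternative processing called it (-0.07 to 0.08). With the wild-type lin-41 sites the let-7 mutation raised lin-41 by 1.78 ± 0.13 (adjusted p = 1.67e-10). The difference between these effects was -1.76 ± 0.17 (adjusted p = 2.44e-07). In whole-worm RNA a gene expressed in fewer cells and one with less RNA per cell cannot be told apart, here and in all that follows.

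daf-12 (WBGene00000908, X:10635908-10666875, plus strand, WBcel235) was higher in the double mutant at every late hour. In lin-41(xe11) it fell from 36.3 and 34.4 CPM at 28 and 30 h to 32.2, 26.9 and 21.1 CPM at 32, 34 and 36 h. In the double mutant it stood at 83.4, 103.3, 76.7, 59.7 and 51.5 CPM. The lowest library of the double mutant was above the highest of lin-41(xe11), and both strains declined over the window. The change was 1.30 ± 0.09 (2.47-fold, adjusted p = 3.55e-10). It lay between 1.21 and 1.36 under every alternative and was called in all of them except the fit without the hour (1.31, adjusted p = 0.26). At 38 h the levels were 19.8 CPM in lin-41(xe11) and 44.5 CPM in the double mutant, so the gap was still there in the last library.

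The rise of daf-12 was of the same size with and without xe11. In N2 it stood at 45.2, 37.4, 37.1, 24.8 and 18.2 CPM from 28 to 36 h, and in let-7(n2853) at 99.0, 73.4, 77.9, 63.5 and 53.4 CPM. N2 lay close to lin-41(xe11), and let-7(n2853) close to the double mutant. The rise of let-7(n2853) over N2 was 1.21 ± 0.09 (adjusted p = 5.39e-10), and the difference between the effects was 0.10 ± 0.13 (adjusted p = 0.741). daf-12 was also the 1 gene of 13295 (0.00752%) whose late difference between the double mutant and lin-41(xe11) exceeded the early one, by 1.07 ± 0.13 (adjusted p = 6.71e-05). From 18 to 26 h the hourly differences were 0.07, 0.02, 0.06, 0.28 and 0.71 on the log2 scale, and they were 1.2, 1.58, 1.25, 1.15 and 1.29 from 28 to 36 h. The difference was near 0 up to 22 h and above 1 from 28 h on. In lin-41(xe11) daf-12 stood at 203.6, 159.7, 109.3, 102.8 and 69 CPM from 18 to 26 h, and in the double mutant at 213.9, 162.5, 113.8, 124.6 and 112.7 CPM. It thus declined in both strains and declined less in the double mutant. The call of late minus early was lost without the hour (1.13, adjusted p = 1), with the library age in its place (0.89, adjusted p = 0.565) or when only these 2 strains were fitted (1.08, adjusted p = 0.0541).

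The other 8 listed let-7 targets were not called. hbl-1 stood at 18.8, 21.8, 22.7, 16.3 and 11.6 CPM in lin-41(xe11) and at 33.9, 29.7, 22.1, 24.6 and 14.5 CPM in the double mutant. It was higher at 4 of 5 hours, all but 32 h, and the groups overlap. Its difference was 0.44 ± 0.15 (adjusted p = 0.744, 95% interval 0.13 to 0.74), beside 0.43 ± 0.15 for let-7(n2853) against N2 (adjusted p = 0.0383). nhr-25, which encodes a nuclear receptor with roles in molting, gave 0.07 ± 0.21 here (adjusted p = 0.9995) and 0.63 in let-7(n2853) against N2 (adjusted p = 0.0254). The difference between the effects on nhr-25 was -0.56 (adjusted p = 0.255). The Ras gene let-60, the heterochronic genes lin-14 and lin-28, and the transcription factor genes nhr-23, die-1 and pha-4 lay between -0.10 and 0.19. With daf-12 counted, 1 of 10 listed targets was called, and their median change was 0.08 against -0.01 for all tested genes.

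**Figure D2:**
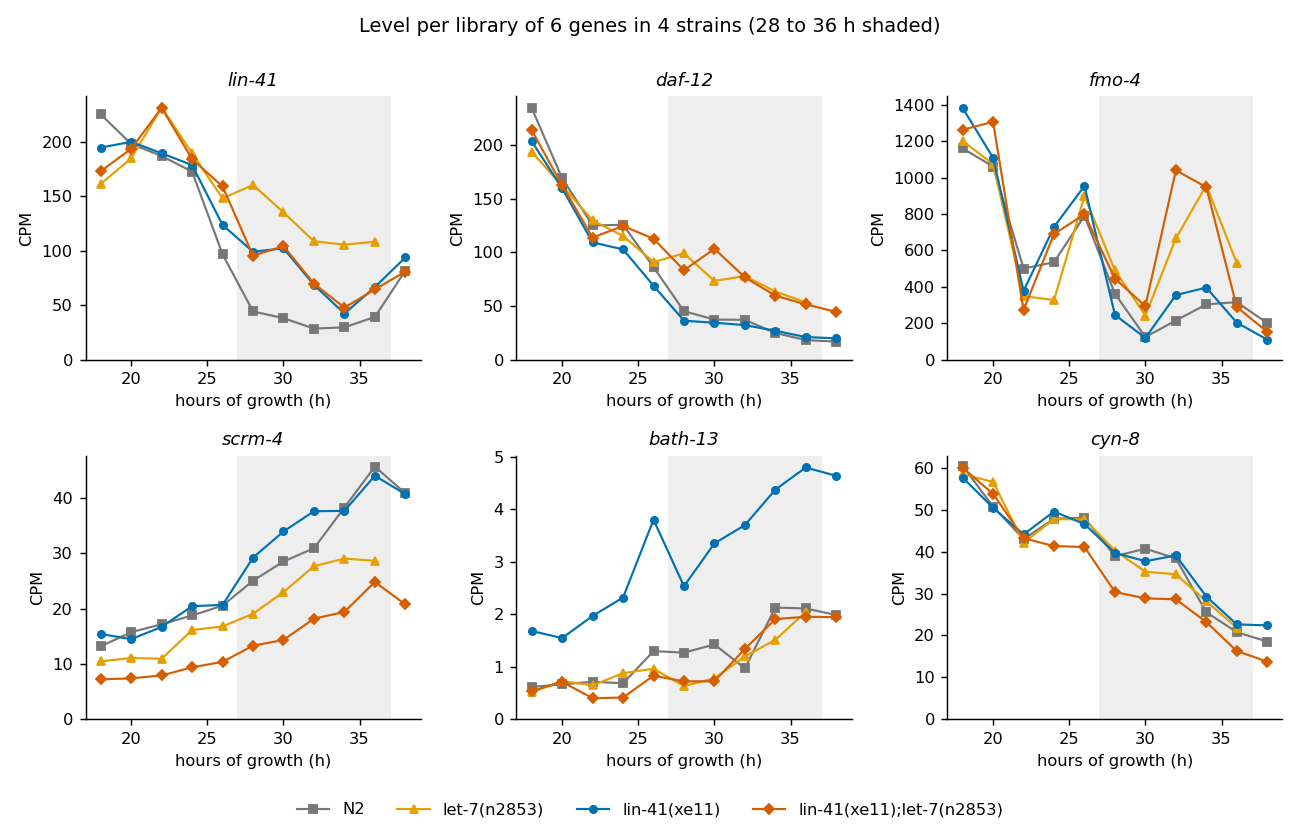
Each panel plots the CPM of 1 gene per library against the hours of growth in the 4 strains, with 1 point per library and 28 to 36 h shaded. In the shaded hours daf-12 and fmo-4 are higher in let-7(n2853) than in N2 and in the double mutant than in lin-41(xe11), lin-41 is alike in both strains that carry xe11, scrm-4 is lowest in the double mutant at every hour, and bath-13 is high in lin-41(xe11) alone.

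fmo-4 (WBGene00001479, V:13603276-13606701, minus strand), a gene of the flavin-containing monooxygenases, which oxidise small molecules, had the highest median level of the called genes. It stood at 245.5 CPM at 28 h and 354.6, 395.9 and 203.2 CPM from 32 h on in lin-41(xe11), with its lowest level at 30 h, and at 444.9, 293.9, 1040, 948.1 and 289.5 CPM in the double mutant. The double mutant was higher at each hour, most at 32 h, but the groups overlap because the gene swings with time in both strains. The rise was 1.15 ± 0.22 (2.23-fold, adjusted p = 0.0226). It was 1.02 ± 0.22 in let-7(n2853) against N2 (adjusted p = 0.00122), and the difference between the effects did not pass its test (0.13 ± 0.30, adjusted p = 0.866). The call was lost without any of the lin-41(xe11) libraries or without those of the double mutant at 30, 32 or 34 h, with changes of 0.94 to 1.19 and adjusted p up to 0.214. It was also lost with the library age in place of the hour (1.04, adjusted p = 0.945). None of the other 3 tested flavin monooxygenase genes was called.

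gst-14 (WBGene00001762, II:13614781-13616100, minus strand), a gene of the glutathione S-transferase family of detoxifying enzymes, rose in both backgrounds, at low levels. It stood at 1.46, 1.78, 1.23, 0.505 and 0.320 CPM in lin-41(xe11) and at 1.64, 4.99, 4.27, 1.84 and 0.868 CPM in the double mutant. The strains were close at 28 h, and apart from 30 h on. The rise was 1.30 ± 0.26 (adjusted p = 0.0439) beside 0.97 ± 0.23 in let-7(n2853) against N2 (adjusted p = 0.00271), a difference of 0.33 ± 0.35 (adjusted p = 0.657). Its call was lost without any library of 30, 32, 34 or 36 h of either strain (1.15 to 1.32, adjusted p up to 0.294). In edgeR it was also lost with the library age in place of the hour (adjusted p = 0.945) or total counts only (adjusted p = 0.0801). The fits on these 2 strains (adjusted p = 0.23) or on the 10 late libraries (adjusted p = 0.196) did not call gst-14. Nor did limma on the deposited log2 values (adjusted p = 0.0699), while DESeq2's Wald test did (adjusted p = 0.00411). Of 32 tested glutathione transferase genes it was the 1 called.

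Y39G8B.7 (WBGene00012727, II:13994410-13995034, minus strand) and C48B4.8 (WBGene00008171, III:9559824-9561258, minus strand) rose with xe11 and not without it. Y39G8B.7 stood at 8.45, 3.55, 3.61, 2.19 and 2.56 CPM in lin-41(xe11) and at 11, 9.76, 8.71, 9.13 and 7.67 CPM in the double mutant. The lin-41(xe11) library of 28 h lies inside the range of the double mutant and the other 4 below it. The rise was 1.28 ± 0.20 (adjusted p = 0.00183), against -0.09 in let-7(n2853) over N2 (adjusted p = 0.76), and the effects differed by 1.37 (adjusted p = 0.00198). N2 and let-7(n2853) were at 5.12 to 11.9 CPM in the late window, so the lin-41(xe11) libraries from 30 h on were the low ones. The call was lost when only these 2 strains (adjusted p = 0.181) or only the 10 late libraries (adjusted p = 0.124) were fitted. C48B4.8 stood at 1.31, 1.05, 1.71, 2.36 and 2.08 CPM in lin-41(xe11) and at 1.70, 1.37, 2.60, 4.74 and 3.91 CPM in the double mutant. Its rise was 0.70 ± 0.15 (adjusted p = 0.0496), and the effects differed by 1.05 (adjusted p = 0.00131). C48B4.8 was called in only 1 of the 10 fits that left out a library, without lin-41(xe11) at 28 h. Of all 20 alternatives 18 lost the call, among them DESeq2's Wald test (adjusted p = 0.136) and edgeR with 38 h added (0.51, adjusted p = 0.204). The levels of C48B4.8 were 4.76 and 4.63 CPM at 38 h.

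scrm-4 (WBGene00008681, I:11680899-11682441, minus strand), of the phospholipid scramblase family, had the smallest p of all genes. From 28 to 36 h it stood at 29.2, 33.9, 37.6, 37.7 and 44.0 CPM in lin-41(xe11) and at 13.3, 14.3, 18.2, 19.4 and 24.8 CPM in the double mutant. Every double mutant library was below every lin-41(xe11) library, and both strains climbed with time. The fall was -1.04 ± 0.07 (adjusted p = 6.02e-11), and it was called under every alternative (-1.09 to -1.0). The gene was as low early, at -1.05 ± 0.07 from 18 to 26 h (adjusted p = 1.60e-10), with late minus early at 0.01. In let-7(n2853) against N2 it fell by less (-0.39 ± 0.07, adjusted p = 9.61e-05), and the effects differed by -0.65 ± 0.09 (adjusted p = 6.82e-05). Exons of kpc-1 overlap scrm-4, and the sources used here do not say whether counting used the strand, so reads of overlapping genes, here and below, cannot be told apart.

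bath-13 (WBGene00018223, II:2520842-2522060, minus strand), of a family with BTB and MATH domains, differed by the higher level of lin-41(xe11). It stood at 2.54, 3.35, 3.70, 4.38 and 4.8 CPM in lin-41(xe11) and at 0.720, 0.723, 1.34, 1.91 and 1.95 CPM in the double mutant. The groups do not overlap, while N2 (0.970 to 2.13 CPM) and let-7(n2853) (0.632 to 2.05 CPM) had levels like the double mutant. The difference was -1.54 ± 0.17 late (adjusted p = 3.31e-06) and -1.94 ± 0.19 early (adjusted p = 5.80e-07). In let-7(n2853) against N2 it was -0.41 ± 0.17 and not called (adjusted p = 0.11), and the effects differed by -1.13 (adjusted p = 0.00375). Both scrm-4 and bath-13 differed between the strains with xe11 in the early and the late window. Whether this comes from the let-7 allele or from another constant difference between these strains was not tested.

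cyn-8 (WBGene00000884, X:8911293-8914261, plus strand), a cyclophilin gene, showed a small and even fall. It stood at 39.7, 37.8, 39.1, 29.3 and 22.7 CPM in lin-41(xe11) and at 30.4, 28.9, 28.6, 23.2 and 16.3 CPM in the double mutant. Each double mutant library was lower than its partner of the same hour, by 0.34 to 0.47 on the log2 scale. The fall was -0.41 ± 0.06 (1.33-fold, adjusted p = 2.34e-04). It was not called in the other background (-0.02 ± 0.05, adjusted p = 0.787), and the effects differed by -0.38 ± 0.08 (adjusted p = 0.00277). When only the 10 late libraries were fitted it was not called (adjusted p = 0.082). At 38 h cyn-8 stood at 22.4 CPM in lin-41(xe11) and 13.8 CPM in the double mutant.

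dhs-7 (WBGene00000971, II:7206990-7208460, minus strand, with exons shared with srd-59), a short-chain dehydrogenase gene, stood at 10.7, 15.4, 15.4, 19 and 19.5 CPM in lin-41(xe11) and at 7.60, 5.21, 11.2, 10.5 and 11.2 CPM in the double mutant. It fell by 0.83 ± 0.15 (a log2 change of -0.83, adjusted p = 0.0137), beside -0.51 in let-7(n2853) against N2 (adjusted p = 0.00941). Its call was lost without the lin-41(xe11) library of 30 or 36 h or that of the double mutant at 30 or 34 h (-0.69 to -0.82, adjusted p up to 0.124). The pseudogene WBGene00020164 (II:7082102-7084083, plus strand) stood at 8.22, 8.81, 7.88, 11.4 and 11.1 CPM against 4.52, 4.05, 4.69, 6.09 and 7.88 CPM. Its fall was -0.81 ± 0.17 (adjusted p = 0.0496), and it was called in 1 of the 10 fits without a library, that without the double mutant at 36 h. dhs-7 and WBGene00020164 span 126.4 kb of chromosome II with 26 tested genes, of which no other was called and 17 had a negative change (median -0.04). By chromosome, 5 of the 12 called genes are on II, which holds 16.3% of tested genes, and 4 are on X, which holds 13.7%.

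**Figure D3:**
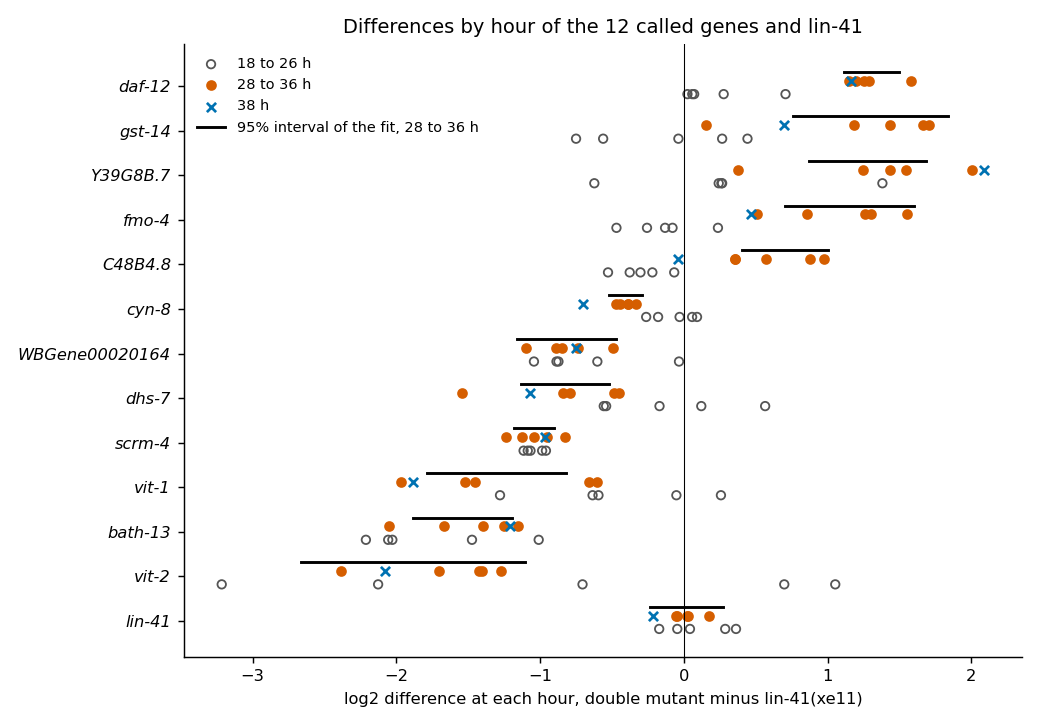
Each row plots the log2 difference of the double mutant and lin-41(xe11) at each hour for 1 gene: open circles from 18 to 26 h, orange points from 28 to 36 h, a blue cross at 38 h, and a bar for the 95% interval of the late change. daf-12 moves from near 0 early to above 1 late, scrm-4 and bath-13 are low in both windows, and lin-41 stays around 0.

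Of 6 yolk protein genes 3 were tested, and vit-1 and vit-2 were called lower in the double mutant. vit-1 (WBGene00006925, X:7727889-7733168, plus strand) and vit-2 (WBGene00006926, X:5101042-5106169, plus strand, with exons shared with C42D8.9) encode vitellogenins, which the intestine of the adult hermaphrodite makes. vit-1 stood at 3.23, 9.54, 55.2, 52.4 and 247.7 CPM in lin-41(xe11) and at 1.05, 6.22, 20.1, 33.1 and 63.2 CPM in the double mutant. vit-2 stood at 0.538, 2.37, 12.9, 24.0 and 548.9 CPM in lin-41(xe11) and at 0.131, 0.651, 5.28, 8.99 and 104.7 CPM. At each hour the double mutant was lower, but the groups overlap since the genes climb steeply within each strain. The changes were -1.30 ± 0.24 for vit-1 (adjusted p = 0.0137) and -1.89 ± 0.38 for vit-2 (adjusted p = 0.0439). vit-6, just outside the threshold, gave -2.62 ± 0.56 (adjusted p = 0.0651) and was also lower at 5 of 5 hours. At 38 h vit-1 was at 553.1 and 150.0 CPM and vit-2 at 2018 and 477.4 CPM in lin-41(xe11) and the double mutant.

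These calls lean on single libraries. Without the lin-41(xe11) library of 36 h the changes were -1.01 for vit-1 (adjusted p = 0.238) and -1.21 for vit-2 (adjusted p = 1). vit-1 was also lost without lin-41(xe11) at 32 h or the double mutant at 32, 34 or 36 h, and vit-2 without any other late library except that of lin-41(xe11) at 34 h. With the 38 h libraries added, vit-1 (-1.43, adjusted p = 4.55e-04), vit-2 (-1.93, adjusted p = 0.00177) and vit-6 (-2.77, adjusted p = 0.00178) were all called. With the library age in place of the hour vit-2 was called (-1.58, adjusted p = 0.0159) and vit-1 was not (-1.13, adjusted p = 0.176). DESeq2's Wald test called vit-1 (adjusted p = 0.00254) and not vit-2 (adjusted p = 0.419). The vitellogenin genes are close relatives and may share reads, so single members are uncertain. Their summed level over all 6 genes was 4.0 to 1494.8 CPM in lin-41(xe11) and 1.3 to 231.3 CPM in the double mutant. Markers of the intestine, where they are made, summed to 10080.6 to 13408.5 CPM and 9803.4 to 14213.0 CPM over 26 genes, and edgeR and DESeq2 called 0 of 25 tested, with 1 at an unadjusted p under 0.05. Markers of oocytes, another sign of adulthood, summed to 276.1 to 1531.1 CPM and 252.6 to 1454.1 CPM over 23 genes, and none was called.

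Without xe11 vit-2 and vit-6 differed more than with it. let-7(n2853) had 1.13 to 23.1 CPM of vit-1 against 2.73 to 165.4 CPM in N2 (-2.07, adjusted p = 7.57e-07), and 0.0333 to 2.26 CPM of vit-2 against 0.572 to 555.7 CPM (-6.52, adjusted p = 5.39e-10). For vit-2 the effects differed by 4.63 (adjusted p = 2.75e-05) and for vit-6 by 6.43 (adjusted p = 1.36e-04). For vit-1 they did not pass (0.76, adjusted p = 0.164).

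Cuticle collagens of the last larval stage and the adult showed no called difference with xe11 by edgeR or by DESeq2 on the 40 libraries, and 1 of 12 had an unadjusted p under 0.05. Of these 12 tested genes 11 had a negative change, from -1.98 to 0.25 with a median of -0.53, while in let-7(n2853) against N2 all 12 were called lower with a median of -5.19. The effects differed for 11 of the 12, all but bli-2 (1.75, adjusted p = 0.0514). col-19, the usual marker of adult epidermis, stood at 0, 0, 0.380, 2.86 and 82.8 CPM in lin-41(xe11) and at 0, 0.0723, 0.0838, 3.75 and 58.3 CPM in the double mutant. It was higher in one strain or the other by hour (-0.31 ± 0.48, adjusted p = 0.9995), and in let-7(n2853) it reached only 3.27 CPM at 36 h. bli-1, a collagen of the adult cuticle struts whose exons overlap dph-2, stood at 0.845, 4.74, 182.3, 447.0 and 129.8 CPM in lin-41(xe11) and at 2.55, 3.76, 81.3, 291.4 and 114.7 CPM in the double mutant (-0.50 ± 0.44, adjusted p = 0.9995). col-120 gave -1.98 and was lower at 5 of 5 hours (adjusted p = 0.9995), and edgeR called it when only the 10 late libraries were fitted (-1.79, adjusted p = 0.0111). The precision is low here, since the interval lay within 2-fold for 1 of the 12 genes. Over the whole collagen family, with 135 genes tested, edgeR and DESeq2 called 0 with xe11 and the median change was -0.25. Of these 135, 19 were lower and 0 higher at 5 of 5 late hours, against 4.10% and 2.65% of all tested genes.

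**Figure D4:**
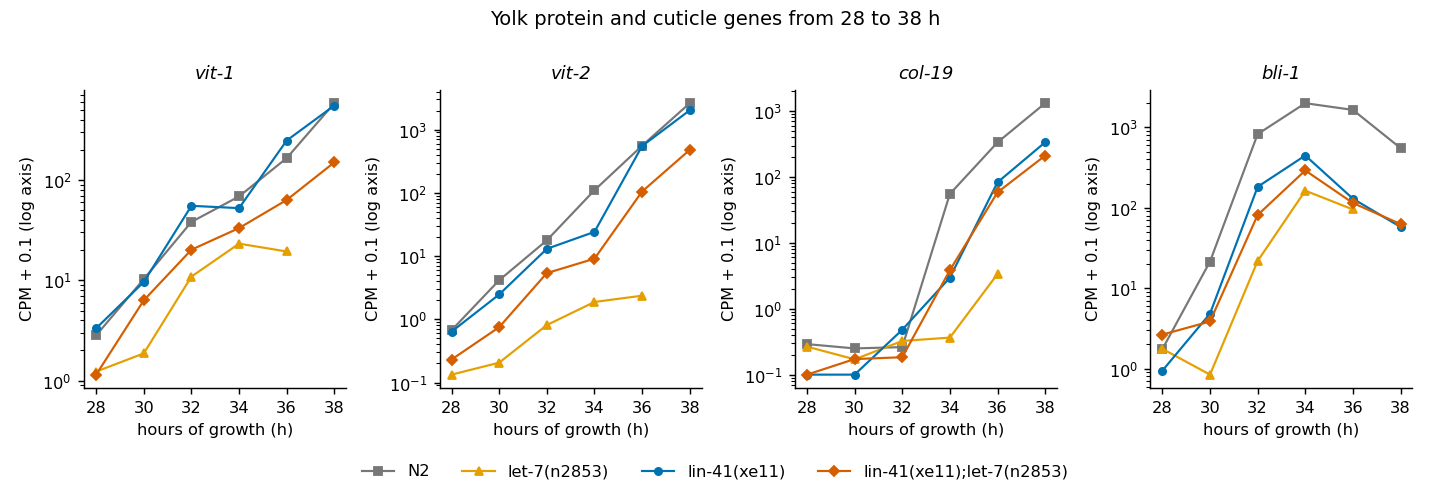
The CPM plus 0.1 of vit-1, vit-2, col-19 and bli-1 is plotted on a log axis against the hours of growth from 28 to 38 h, with 1 point per library and strain. For vit-1 and vit-2 the double mutant runs below lin-41(xe11) at each hour and, from 30 to 36 h, above let-7(n2853), and for col-19 and bli-1 it is above lin-41(xe11) at some hours and below it at others.

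None of the 3 tested RNAs that LIN-41 holds back was called with xe11, by edgeR or DESeq2, and 0 had an unadjusted p under 0.05. mab-10, which encodes a cofactor of LIN-29 and whose exons overlap R166.2, stood at 2.0, 5.92, 13.9, 14.9 and 4.64 CPM in lin-41(xe11) and at 4.32, 8.75, 11.7, 14.3 and 3.91 CPM in the double mutant (0.14 ± 0.26, adjusted p = 0.9995, 95% interval -0.40 to 0.68). mab-3, of the DM-domain family of sexual regulators, stood at 3.23, 1.51, 2.56, 2.11 and 0.480 CPM and at 2.42, 4.34, 2.85, 2.62 and 0.506 CPM (0.36 ± 0.32, adjusted p = 0.9995, 95% interval -0.29 to 1.0). The strains overlap in both genes. In let-7(n2853) against N2 the changes were -1.53 for mab-10 (adjusted p = 9.04e-05) and -2.97 for mab-3 (adjusted p = 4.63e-08). The differences between the effects were 1.67 for mab-10 (adjusted p = 0.00471) and 3.33 for mab-3 (adjusted p = 1.56e-05). lin-29, whose exons overlap hmg-12, gave -0.02 ± 0.18 (adjusted p = 0.9995) and -0.26 ± 0.18 without xe11. dmd-3 did not reach the level needed for a test.

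Across all genes, the difference between the strains that differ in the let-7 allele was many times broader without xe11. let-7(n2853) against N2 had 3064 called genes (23.0%), 1389 higher (10.4%) and 1675 lower (12.6%), at a median standard error of 0.108 against 0.111 for the comparison with xe11. The 2 comparisons share no library. The effects differed for 1055 genes (7.94%), with 614 (4.62%) more positive with xe11 and 441 (3.32%) more negative. With scaling by total counts alone that split was 394 to 902, and in let-7(n2853) against N2 it was 2416 higher to 1069 lower, so the direction of small differences in these comparisons depends on the scaling. Among the 12 genes called with xe11, 7 were also called in let-7(n2853) against N2 and 6 differed between the backgrounds. The changes of all genes had a Pearson r of 0.28 across genes, which are not independent replicates. The late let-7(n2853) libraries matched N2 at 26.7, 30.0, 31.5, 33.0 and 33.7 h. Those of N2 itself matched 27.8, 30.0, 32.0, 34.5 and 36.4 h. With library age in place of the hour, 1946 genes were called in let-7(n2853) against N2 and 498 for the difference between the effects. The part of age in the yolk, cuticle and oocyte differences of let-7(n2853) was not tested.

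The genes that moved most without xe11 were mostly not called with it. The 198 genes at least 2-fold lower in let-7(n2853) had a median change of -1.50 there and of -0.25 with xe11, where 155 (78.3%) had the same sign, 6 lay below -1 and 2 were called. The 95% interval lay within 2-fold for 93 of them. For the 37 genes at least 8-fold lower the medians were -4.96 and -0.51, with 33 of the same sign, 1 called and 34 that differed between the backgrounds, but with xe11 the interval lay within 2-fold for 1 of them and 5 lay below -1. The 56 genes at least 2-fold higher had medians of 1.32 and -0.03, with 27 of the same sign and 2 called (daf-12 and fmo-4). Over all 1389 higher genes the median with xe11 was -0.000548 and 49.7% had the same sign, and over all 1675 lower genes it was -0.01 and 54.7%. For all tested genes the share of equal sign was 53.3%.

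**Figure D5:**
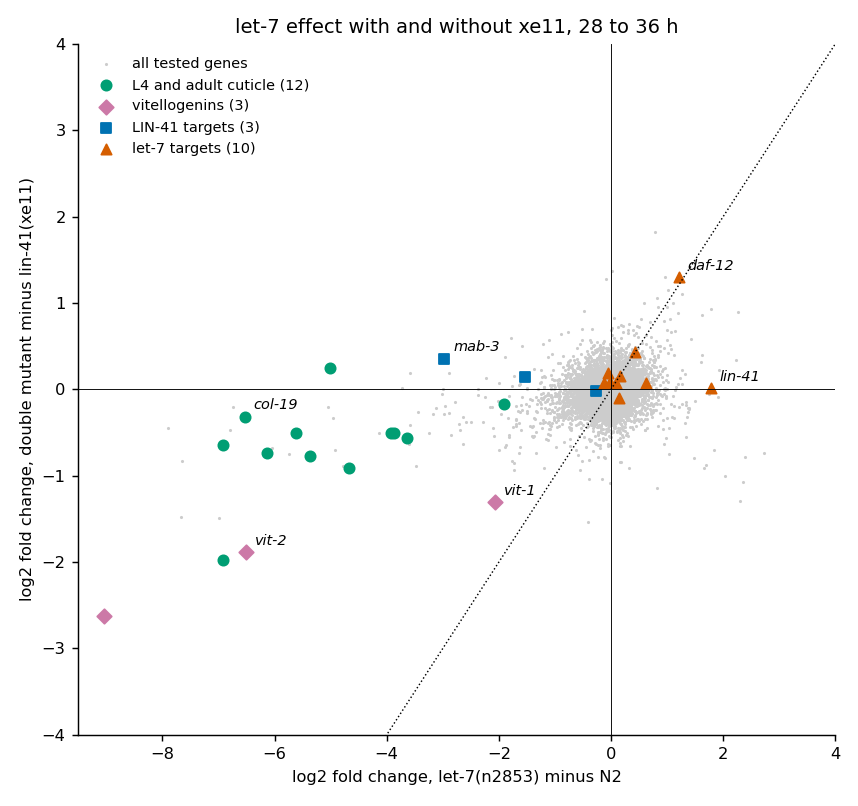
The log2 fold change of the double mutant against lin-41(xe11) is plotted against that of let-7(n2853) against N2 for all tested genes, with 4 gene lists in colour and a dotted line where both are equal. daf-12 lies on the dotted line, lin-41 and the LIN-41 targets lie near 0 on the vertical axis, and the cuticle collagens and vitellogenins lie far to the left, with the 3 tested vitellogenins between -1.30 and -2.62 on the vertical axis.

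The genes with the smallest p for a difference between the backgrounds were mostly ones that moved in let-7(n2853) and hardly with xe11. The collagen gene col-175 stood at 0.154, 1.38, 27.3, 253.2 and 593.3 CPM in lin-41(xe11) and at 1.05, 0.217, 9.13, 151.8 and 414.6 CPM in the double mutant. In N2 it reached 3384 CPM at 36 h and in let-7(n2853) 21.8 CPM, and the effects differed by 6.82 ± 0.73 (adjusted p = 9.97e-07). For the gene with the ID WBGene00000686 the effects also differed (5.37 ± 0.41, adjusted p = 3.35e-09). The ribosomal protein gene rps-29 was at 169.6 to 205.2 CPM in lin-41(xe11), at 194.9 to 219.6 CPM in the double mutant, at 173.5 to 209.1 CPM in N2 and at 103.1 to 125.1 CPM in let-7(n2853). The difference was 0.99 ± 0.09 for rps-29, 0.97 ± 0.08 for Y82E9BR.3, whose exons overlap lelo-2, 0.76 ± 0.07 for the translation initiation factor gene eif-1, whose exons overlap T27F7.12, and 0.45 ± 0.06 for ubxn-4. In let-7(n2853) against N2 these 4 were lower, at -0.82, -0.90, -0.68 and -0.44. By hour they were lower from 18 to 26 h as well, at -1.30 to -0.80, -1.07 to -0.91, -0.85 to -0.56 and -0.56 to -0.31. Whether these gaps are effects of the let-7 allele or constant differences of the strain or its libraries was not tested. The 4 differences between the backgrounds turned negative in limma on the deposited log2 values, whose scale differs for let-7(n2853). Its libraries were also the deepest, at 25.8 to 29.7 M counts in the late window, and the part of depth in these differences was not tested. Of 74 tested ribosomal protein genes edgeR and DESeq2 called 0 with xe11 (median 0.06), with 3 at an unadjusted p under 0.05.

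On the other side, besides lin-41 and scrm-4, the differences were -0.99 ± 0.10 for mmaa-1, -0.57 ± 0.07 for Y54G11A.2, -0.43 ± 0.06 for vps-36, of the endosomal sorting machinery, and -1.20 ± 0.16 for F35H10.6. mmaa-1, a gene of vitamin B12 metabolism, had opposite signs in the 2 backgrounds, but only the difference without xe11 was called. It stood at 77.6, 79.8, 69.5, 79.5 and 94.3 CPM in lin-41(xe11) and at 68.6, 63.4, 52.4, 68.3 and 77.4 CPM in the double mutant (-0.29 ± 0.07, adjusted p = 0.163, lower at 5 of 5 hours). In let-7(n2853) it was 0.71 above N2 (adjusted p = 6.12e-08), at 91.6 to 132.2 CPM against 60.5 to 86.2 CPM in N2. From 18 to 26 h mmaa-1 was above N2 as well, by 0.52 to 0.83 by hour. So were Y54G11A.2 (0.45 to 0.59), vps-36 (0.37 to 0.59) and F35H10.6 (1.025 to 1.65). Whether these gaps are effects of the let-7 allele or constant differences of the strain or its libraries was not tested.

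Of 15 tested genes of the dafachronic acid pathway, daf-12 was the 1 called with xe11, and the median of the list was 0.04. hsd-3, a hydroxysteroid dehydrogenase gene, was higher at 5 of 5 hours, at 1.08, 1.45, 3.51, 3.79 and 0.320 CPM in lin-41(xe11) and at 2.36, 2.24, 6.62, 6.65 and 0.868 CPM in the double mutant. Its change was 0.86 ± 0.29 (adjusted p = 0.655), and it was called when only these 2 strains were fitted (0.90, adjusted p = 0.0332), beside 1.62 in let-7(n2853) against N2 (adjusted p = 7.83e-05). daf-9, which encodes the cytochrome P450 of the last step to dafachronic acid, gave 0.22 ± 0.21 with xe11 (adjusted p = 0.9995) and 0.91 without (adjusted p = 0.00307). The effects did not pass a test of their difference for hsd-3 (-0.76, adjusted p = 0.265) or daf-9 (-0.69, adjusted p = 0.164). Of 184 tested nuclear hormone receptor genes edgeR called only daf-12 with xe11 and DESeq2 1 more (median 0.04), while 47 were called higher and 3 lower without it. nhr-155 gave 1.82 ± 0.39 with xe11, just outside the threshold (adjusted p = 0.0737), as did the cytochrome P450 gene cyp-13A2 (0.82 ± 0.17, adjusted p = 0.0536).

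No marker list of a tissue had a called member with xe11, by edgeR or DESeq2, and 5 of the 222 tested markers had an unadjusted p under 0.05. The lists held 21 seam cell, 15 epidermis, 26 neuron, 24 muscle, 18 pharynx, 25 intestine, 29 germline, 23 oocyte, 19 sperm and 26 vulva genes among those tested. Their medians ran from -0.11 for oocytes to 0.02 for the intestine, beside -0.01 for all genes. Lower at 5 of 5 late hours were 6 of 23 oocyte, 3 of 19 sperm and 1 of 26 vulva markers, against 4.10% of all tested genes. Higher at 5 of 5 were 3 of 25 intestine, 1 of 26 vulva and 1 of 26 neuron markers, against 2.65%. Seam cell markers summed to 965.3 to 1446.2 CPM in lin-41(xe11) and 965.4 to 1429.6 CPM in the double mutant, and epidermis markers to 5253.7 to 6217.8 CPM and 5422.1 to 6235.0 CPM. No gene of the microRNA machinery (19 tested), of molting (39), of the cell cycle (35) or of stress and immunity (33) was called by edgeR or DESeq2, and 8 genes of these lists had an unadjusted p under 0.05, of which 6 were in stress and immunity (18.2% of 33, against 4.19% of all genes) and 2 in molting. In let-7(n2853) against N2, 18 of the 23 oocyte genes were called lower.

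From 18 to 26 h the same strains differed in 6 genes (0.0451%), scrm-4 and bath-13 among them, with 768 at an unadjusted p under 0.05. The others were ztf-28 (1.58), eif-1 (0.29), Y82E9BR.18 (-0.30) and F52B10.3 (-1.11), of which none was called late (0.37, 0.09, -0.21 and -0.78). The lin-41(xe11) library of 24 h stood apart, since its profile matched N2 at 19.9 h while that of the double mutant matched 25.9 h. Without that library 4 genes were called early, 2 of them among the 6. Counts of 2 or 3 came without lin-41(xe11) at 18 h (3) or 22 h (2) or the double mutant at 20 h (2), 22 h (3), 24 h (3) or 26 h (2). daf-12 was the 1 gene called late minus early without any single library, and without lin-41(xe11) at 28 h 3 more genes joined it.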

How the data were processed

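Per the labels' protocols, Tri-Reagent was used for extraction, Ribo-Zero for depletion of ribosomal RNA and the ScriptSeq v2 kit for the libraries. The authors deposited a table of counts per gene and library for 20182 genes, of which 930 were at 0 throughout; mapping, counting, strand use and genome build are not given in the sources used here. The authors also deposited log2 values. Recomputed from the counts, each was the log2 of 8 plus the count scaled to a fixed total, which was 26.1 M for let-7(n2853) and 12.0 M for the 3 other strains. Symbols came from the reference table (18778 IDs) and positions from the WBcel235 annotation (19513 IDs). No 2 of the 10 late libraries were duplicates (smallest chi-square per degree of freedom 6.34 over 45 pairs).

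The test took 13295 genes whose mean over the 40 libraries of 18 to 36 h was 1 CPM or more. edgeR 4.0.16 (R 4.3.3) fitted the counts with TMM factors by its quasi-likelihood method. The model had 10 hour levels, which pair the strains, and a separate early and late effect for each mutant strain, with 24 residual degrees of freedom. Adjusted p is Benjamini-Hochberg over all tested genes. Standard errors come from the F statistic of each contrast, intervals are 95%, and a prior count of 2 entered the log2 differences at single hours. The code was tested on simulated data. Alternatives were other scalings, no filter, DESeq2 1.42.0, limma 3.58.1 on the log2 values, no hour, library age (highest correlation with N2 splines over all tested genes), fewer libraries, 38 h added, and leaving out each library.

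The comparison, gene lists and tests were chosen with earlier results of these data known. Lists of 5 enzyme families, leave-outs for the early and the late minus early comparison, the rescaled limma fit and all alternatives for let-7(n2853) against N2 were added after seeing these values. Named genes are all listed let-7 and LIN-41 targets, up to 12 of the largest called rises and of the falls with 1 sign at 5 of 5 hours, up to 3 called members per list, and the 6 of smallest p each way for the other comparisons. Cuticle, vitellogenin, dafachronic acid, flavin monooxygenase, near-threshold and early genes were named after their values were seen. Sequences and let-7 sites were not analysed here.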

Additional observations from a re-analysis of the deposited data

Results flagged for a closer look

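For several genes the late difference between the let-7 alleles was not the same with xe11 as without it. The test was that of the difference itself in edgeR's quasi-likelihood fit. The difference, given as the log2 effect with xe11 minus the effect without it, was negative for lin-41 (-1.76), bath-13 (-1.13), scrm-4 (-0.65), cyn-8 (-0.38), mmaa-1 (-0.99), Y54G11A.2 (-0.57), vps-36 (-0.43) and F35H10.6 (-1.20). It was positive for mab-10 (1.67), mab-3 (3.33), Y39G8B.7 (1.37), C48B4.8 (1.05), vit-2 (4.63), WBGene00000686 (5.37), Y82E9BR.3 (0.97), rps-29 (0.99), eif-1 (0.76), col-175 (6.82) and ubxn-4 (0.45). Of those called late in let-7(n2853) against N2, several had the same sign there at each hour from 18 to 26 h. These were mab-3, scrm-4, Y82E9BR.3, rps-29, eif-1, ubxn-4, mmaa-1, Y54G11A.2, vps-36 and F35H10.6. bath-13 and scrm-4 were also called early between the 2 strains with xe11. The part of constant differences between strains or libraries in these genes was not tested. The effect of the let-7 allele with xe11 was larger late than early for daf-12, by 1.07.

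In 3 genes 1 of the 5 late hours stood far from the other 4 in the difference between the double mutant and lin-41(xe11). These were WBGene00000686 (0.93), ubxn-4 (0.16) and F35H10.6 (-0.51). Chance alone gives about 1 such gap in 20 groups. The search covered every tested gene named by the fixed rules, so some such gaps arise by chance.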

How the results depend on the processing

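The count of 12 genes stayed within 1.5-fold under 8 alternatives (8 to 17 genes) and was 26 with 38 h added. Of the 12, 11 were also called with 38 h added, 8 among the 15 of the fit on the 2 strains, and 5 among the 10 of the fit on the late libraries alone. The hour pairs the libraries, whose labels carry no replicate numbers. With no replicate block, where change between hours counts as spread, 1 gene was called late, 2 early, 0 late minus early (109 at an unadjusted p under 0.05 in edgeR), 89 for the difference between backgrounds and 566 in let-7(n2853) against N2. With library age the counts were 2 early, 0 late minus early (536 unadjusted), 498 and 1946. With the 2 strains alone they were 3 early and 0 late minus early (598 unadjusted). DESeq2, with the hour and all 40 libraries, called 1 gene late minus early and 11 early, and adding 38 h gave 1656 for the difference between backgrounds. Leaving out single libraries gave 5 to 11 genes late, 2 to 5 early, 1 to 4 late minus early, and 707 to 1117 for the difference between backgrounds. limma on the deposited log2 values called 12595 genes for that difference and 12918 in let-7(n2853) against N2, with median shifts of -1.13 and 1.11 set by the unequal common totals; it reversed Y82E9BR.3 (-0.24), rps-29 (-0.22), eif-1 (-0.44) and ubxn-4 (-0.74). Rescaled to 1 total it called 1360 and 3563. Over 86 gene results and 1705 refits, 144 lost a call, 5 gained one and 4 changed sign. Causes not named here were not tested. A count of let-7 sites was not run. The 457 uncalled genes whose interval reached 2-fold had a median level of 3.26 CPM. Some were well covered, such as col-38 at a mean of 389.6 CPM (-1.79 to 0.78). The part of depth in the width of the intervals was not tested.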
